A study of Mus musculus with 6 samples.

Results

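Aminoacyl-tRNA synthetases are the enzymes that join each amino acid to its transfer RNA (tRNA). Their genes were taken from the array annotation by symbol: the single amino acid letter followed by ars, with or without a closing digit, together with Eprs, Farsa, Farsb and Tarsl2. This rule gave 34 of the 22180 genes that could be analysed, 19 enzymes of the cytosol and 15 of mitochondria, whose symbols end in the digit 2. Gars and Kars, which each serve both compartments, are counted with the cytosolic enzymes. Fars2 carries a symbol outside the rule, and Aars shares its only probe set with Exosc6, so neither is a member.

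RNA was measured on 6 Affymetrix arrays in mouse bone marrow macrophages, 2 arrays for each of 3 groups. All cells came from C57Bl/6 bone marrow grown for 5 days in 20 ng/ml M-CSF, the growth factor that turns myeloid precursors into macrophages. After replating, cells spent 6 days with 10 µM nutlin-3a and 20 ng/ml FSL-1 together (called FSL-1 + nutlin-3a), with FSL-1 alone at 20 ng/ml (called FSL-1), or with M-CSF at 50 ng/ml (called M-CSF). FSL-1 is a lipopeptide agonist of the receptors TLR2 and TLR6. The cells that grow in it are multinucleated giant cells, according to the design text of the series. Nutlin-3a releases p53 from its inhibitor Mdm2. It is not stated whether the FSL-1 medium still held M-CSF, nor by which gate the cells were sorted, and cells lacking p53 were not analysed here. The labels do not tie the replicates to different animals or dishes, so p-values reflect only how far these arrays differ, which may be technical spread.

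Each compartment has its own synthetases, all encoded in the nucleus. The cytosolic enzymes charge the tRNAs read by cytosolic ribosomes, and some of them sit together in the multisynthetase complex, held by the scaffold proteins Aimp1, Aimp2 and Eef1e1. The mitochondrial enzymes charge the tRNAs encoded by mitochondrial DNA. When uncharged tRNA builds up, the kinase GCN2 (gene Eif2ak4) phosphorylates the initiation factor eIF2, translation of the transcription factor Atf4 increases, and Atf4 activates genes of amino acid synthesis and transport together with many cytosolic synthetase genes.

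The values are log2 signals normalised by the authors, and a difference of 1 corresponds to a 2-fold change. Replicate arrays correlated at 0.9929 to 0.9951 across all genes, and arrays of different groups at 0.9788 to 0.9858. The macrophage markers Cd68 and Adgre1 were bright on every array, at 13.08 to 13.25 and 11.84 to 12.46. Defining markers of other cells, Ly6g of neutrophils, Flt3 of dendritic cells and Cd3e of T cells, lay between 3.80 and 4.88, around the median of 4.25 for probe sets that name no gene. Other genes of the same lists were brighter: Cd209a of the dendritic list was at 8.69 to 9.17, Itgax at 5.76 to 6.91, and Cd4 of the lymphocyte list, which some myeloid cells also carry, at 9.51 to 10.75. S100a8, a neutrophil and monocyte gene, was at 6.60 and 6.13 with FSL-1 + nutlin-3a, 6.50 and 6.69 with FSL-1, and 4.49 and 3.90 with M-CSF. In the pooled RNA of each sample, fewer cells of a type and less RNA per cell cannot be told apart.

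The first comparison, FSL-1 + nutlin-3a against FSL-1, asked how FSL-1 cultures differed when nutlin-3a was added. Whether p53 carried any of the changes was not tested. Cytosolic synthetase mRNAs were lower with nutlin-3a: 11 of 19 fell at an adjusted p under 0.05 (limma, Benjamini-Hochberg over all genes) and 0 rose. Of all 22180 genes, 4.12 percent fell and 2.38 percent rose. The 11 enzymes were 1.46 to 2.19 times lower, and 5 of them, Sars, Cars, Gars, Mars1 and Eprs, were more than 2 times lower. The median log2 change of the 19 cytosolic enzymes was -0.82, against 0.02 for all genes. None of the 15 mitochondrial enzymes passed the test in either direction, and their median change was -0.09. Among genes with mean signals in the range of the cytosolic enzymes 8.11 percent fell, and in the range of the mitochondrial enzymes 7.09 percent fell.

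**Figure D1:**
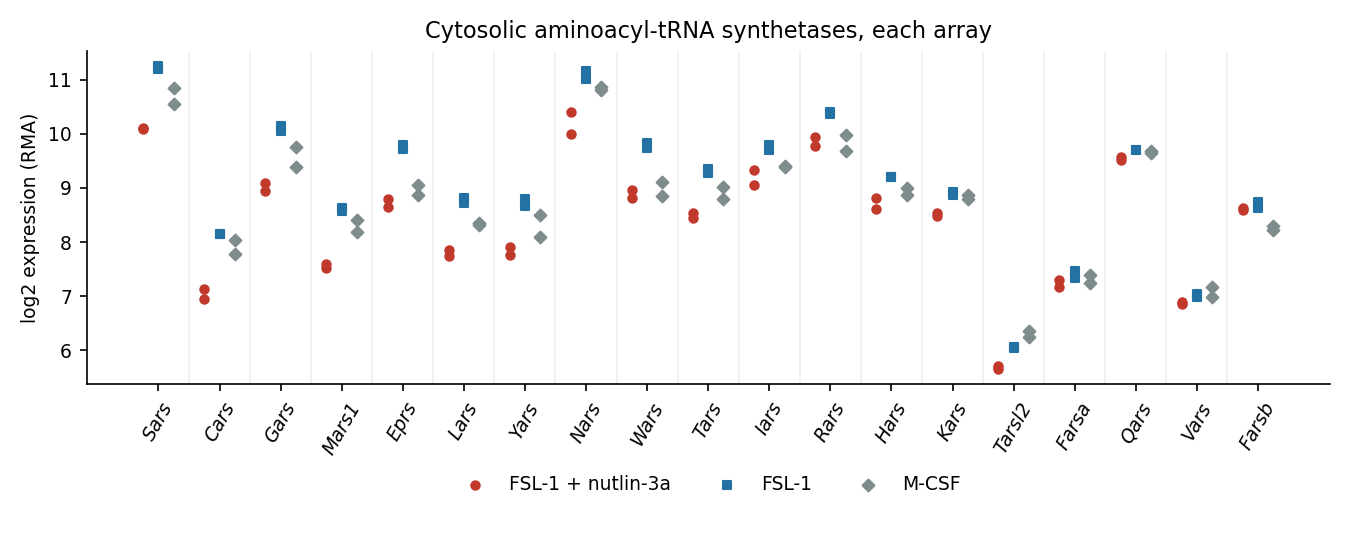
Log2 signal of the 19 cytosolic synthetase genes on each array. Points are single arrays, red circles for FSL-1 + nutlin-3a, blue squares for FSL-1 and grey diamonds for M-CSF. For Sars the circles lie at 10.10 and 10.09, below the squares at 11.25 and 11.20 and the diamonds at 10.56 and 10.85.

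Sars, which charges serine tRNA, showed the largest fall of the family. Its signal was 10.10 and 10.09 with FSL-1 + nutlin-3a, against 11.25 and 11.20 with FSL-1 and 10.56 and 10.85 with M-CSF. The nutlin-3a arrays were below all others, 2.19 times lower than FSL-1 (log2 change -1.13 ± 0.13, SE, 2 arrays per group; adjusted p 0.00317). Cars, the cysteine enzyme, read 7.13 and 6.94 with FSL-1 + nutlin-3a, against 8.14 and 8.15 with FSL-1 and 7.78 and 8.04 with M-CSF. It was 2.16 times lower than with FSL-1 (change -1.11 ± 0.14, SE; adjusted p 0.00386) and again lowest in both nutlin-3a arrays. Gars, the glycine enzyme used in cytosol and mitochondria, read 9.09 and 8.95 with FSL-1 + nutlin-3a, against 10.15 and 10.06 with FSL-1 and 9.39 and 9.76 with M-CSF. The groups did not overlap, and Gars was 2.12 times lower than with FSL-1 (change -1.08 ± 0.15, SE; adjusted p 0.00626).

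Of the 7 members that belong to the multisynthetase complex, 4 fell. Mars1 charges methionine onto initiator and elongator tRNA. It read 7.60 and 7.51 with FSL-1 + nutlin-3a, against 8.57 and 8.62 with FSL-1 and 8.19 and 8.41 with M-CSF. Both nutlin-3a values were the lowest, 2.05 times below FSL-1 (change -1.04 ± 0.12, SE; adjusted p 0.00351). Eprs is a single protein that charges both glutamate and proline tRNA. It read 8.80 and 8.64 with FSL-1 + nutlin-3a, against 9.79 and 9.72 with FSL-1 and 8.87 and 9.05 with M-CSF, so the nutlin-3a arrays were close to those with M-CSF and well below FSL-1 (2.05 times lower, change -1.04 ± 0.13, SE; adjusted p 0.00372).

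Lars, the leucine enzyme, read 7.85 and 7.74 with FSL-1 + nutlin-3a, against 8.82 and 8.72 with FSL-1 and 8.32 and 8.35 with M-CSF. It had the smallest standard error of the enzymes that fell and was 1.96 times lower than with FSL-1 (change -0.97 ± 0.11, SE; adjusted p 0.00328). Iars, the isoleucine enzyme, read 9.33 and 9.06 with FSL-1 + nutlin-3a, against 9.80 and 9.69 with FSL-1 and 9.38 and 9.40 with M-CSF. It showed the smallest change of the enzymes that passed, 1.46 times lower with an adjusted p of 0.0497, and its call was lost when any single array was left out (adjusted p 0.0645 to 0.241). The remaining complex members did not pass: Rars for arginine changed by -0.52 (adjusted p 0.0712), Kars for lysine by -0.39 (adjusted p 0.085) and Qars for glutamine by -0.16 (adjusted p 0.473).

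Outside the complex, 7 of 12 cytosolic members fell, with a median change of -0.85, against 4 of 7 and -0.55 within it. Yars, the tyrosine enzyme, read 7.76 and 7.91 with FSL-1 + nutlin-3a, against 8.79 and 8.66 with FSL-1 and 8.09 and 8.50 with M-CSF. Nars, the asparagine enzyme, read 10.41 and 10.00 with FSL-1 + nutlin-3a, against 11.17 and 11.01 with FSL-1 and 10.81 and 10.87 with M-CSF. Both were 1.85 times lower than with FSL-1 (changes -0.89 ± 0.16, SE, for each; adjusted p 0.017 for each), and neither overlapped it. Wars, the tryptophan enzyme, is also known as an interferon-induced gene. It read 8.97 and 8.81 with FSL-1 + nutlin-3a, against 9.73 and 9.82 with FSL-1 and 8.86 and 9.11 with M-CSF. Here the nutlin-3a arrays overlapped with M-CSF and were 1.85 times below FSL-1 (change -0.89 ± 0.13, SE; adjusted p 0.00956). Tars, the threonine enzyme, read 8.54 and 8.44 with FSL-1 + nutlin-3a, against 9.35 and 9.27 with FSL-1 and 8.80 and 9.01 with M-CSF, which made it 1.77 times lower than FSL-1 (change -0.82 ± 0.12, SE; adjusted p 0.00956).

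The 5 enzymes outside the complex that did not pass ranged more widely. Hars, the histidine enzyme, changed by -0.49 (adjusted p 0.0619), and Tarsl2, a cytosolic enzyme related to Tars, by -0.37 (adjusted p 0.102). The phenylalanine enzyme is built from the subunits Farsa and Farsb, which changed by -0.17 and -0.07, and Vars, the valine enzyme, changed by -0.13. All 19 cytosolic genes were below 0 and had nutlin-3a arrays that lay entirely below the FSL-1 arrays, a pattern that 23.7 percent of all genes showed. By structural class, 7 of 10 class I enzymes fell (median -0.89) and 4 of 9 class II enzymes (median -0.49). Eprs, which charges both glutamate and proline, was counted in class I only. The separate mitochondrial enzymes for these amino acids, Ears2 and Pars2, belong to class I and class II. Neither the split by complex nor that by class was tested.

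With an FSL-1 or nutlin-3a array left out, that group keeps 1 array, and fewer of all genes passed as well. A lost call therefore does not single out the array that was left out. The count of 11 became 5 or 6 without an FSL-1 array and 6 without the second nutlin-3a array. Sars, Cars, Mars1, Eprs and Lars passed in every fit with an array left out and under all 9 other settings. The nutlin-3a call of Gars was lost without the first FSL-1 array (adjusted p 0.0603). Those of Wars, Tars and Nars were lost without either FSL-1 array or without the second nutlin-3a array. That of Yars was lost without any FSL-1 or nutlin-3a array (adjusted p 0.0603 to 0.126). In all of these fits the direction stayed negative.

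**Figure D2:**
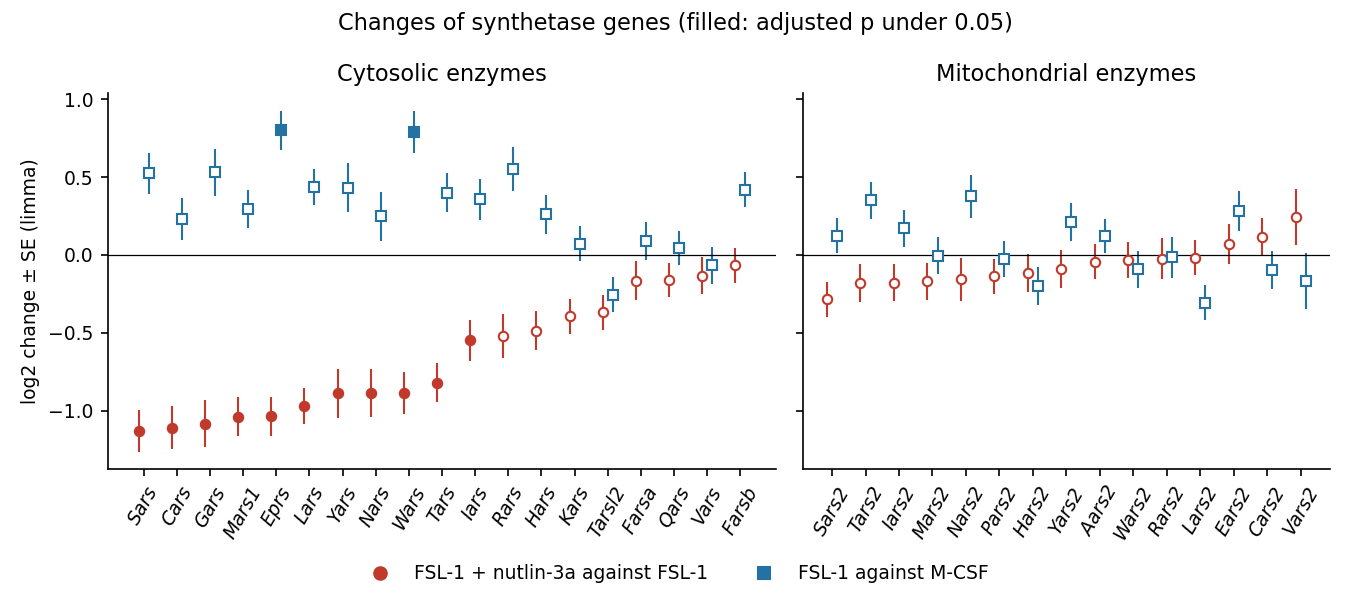
Log2 change of each synthetase gene with its standard error, FSL-1 + nutlin-3a against FSL-1 as red circles and FSL-1 against M-CSF as blue squares, cytosolic genes on the left and mitochondrial genes on the right. Filled symbols have an adjusted p under 0.05. The 11 filled circles lie between -1.13 and -0.55, all among the cytosolic genes.

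The mitochondrial enzymes covered a narrower range, from -0.29 for Sars2 to 0.24 for Vars2, with standard errors of 0.11 to 0.18 and a lowest adjusted p of 0.197. Sars2, which charges mitochondrial serine tRNA, read 6.46 and 6.53 with FSL-1 + nutlin-3a, against 6.84 and 6.73 with FSL-1 and 6.67 and 6.65 with M-CSF. Its nutlin-3a arrays were the lowest of the 6, but the change of -0.29 did not pass. Vars2, for mitochondrial valine tRNA, read 6.81 and 6.60 with FSL-1 + nutlin-3a, against 6.47 and 6.45 with FSL-1 and 6.89 and 6.36 with M-CSF. The M-CSF arrays of Vars2 were far enough apart to span all other values.

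Between these ends, changes with nutlin-3a were -0.18 for Tars2 and Iars2, -0.17 for Mars2, -0.14 for Pars2 and -0.12 for Hars2. They were -0.09 for Yars2, -0.04 for Aars2, -0.03 for Wars2 and -0.02 for Rars2 and Lars2. Ears2 and Cars2 had changes of 0.07 and 0.12. For Nars2 the probe set used changed by -0.15 and a dimmer probe set by 0.07. Of the 15 genes, 7 had nutlin-3a arrays entirely below the FSL-1 arrays, 1 had them entirely above and 7 overlapped, against 23.7 percent below and 27.2 percent above among all genes. Fars2, the mitochondrial phenylalanine enzyme outside the rule, changed by 0.11 (adjusted p 0.692). The probe set shared by Aars and Exosc6 changed by -0.66 and was not part of the test.

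**Figure D3:**
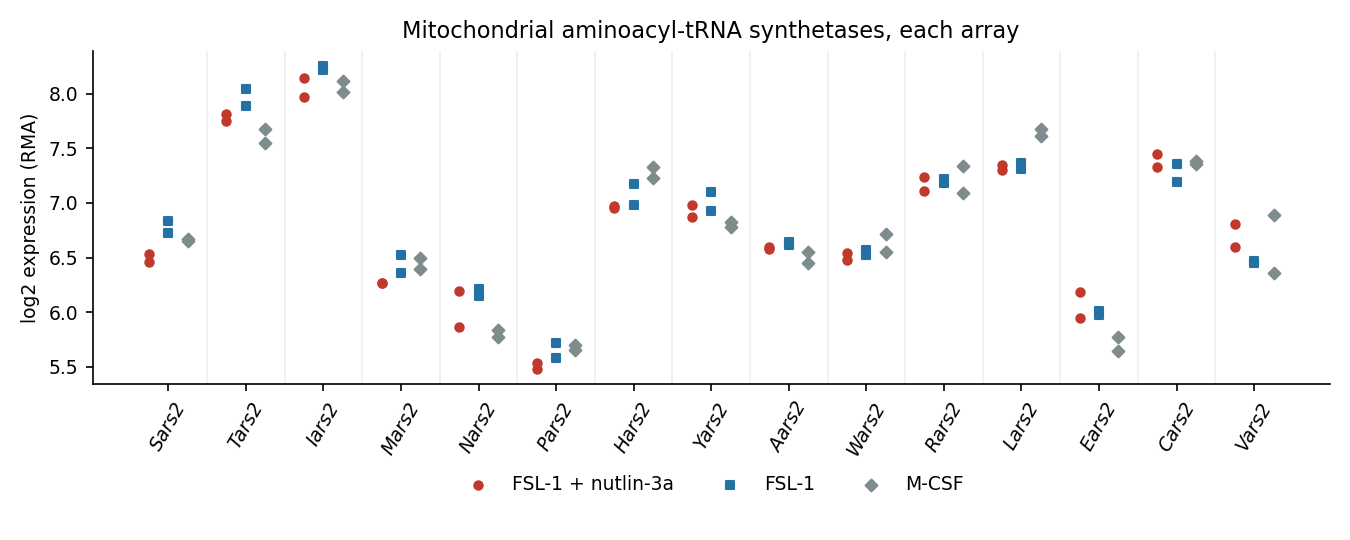
Log2 signal of the 15 mitochondrial synthetase genes on each array, with the same symbols as for the cytosolic genes. Values run from 5.48 (Pars2) to 8.26 (Iars2). The 3 groups lie close together for most genes, as for Sars2 with circles at 6.46 and 6.53 and squares at 6.84 and 6.73.

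For 15 pairs a cytosolic and a mitochondrial enzyme serve the same amino acid, with Eprs paired with both Ears2 and Pars2, and Tars2 with both Tars and Tarsl2. The cytosolic log2 change was the lower one in 15 of 15 pairs, with a median difference of -0.80. The compartments also differed in signal, with a median of 8.90 for the cytosolic and 6.65 for the mitochondrial members. The part of signal level in the difference was not tested. The widest gap was in cysteine, where Cars changed by -1.11 and Cars2 by 0.12. Cars2 itself read 7.33 and 7.45 with FSL-1 + nutlin-3a, against 7.19 and 7.35 with FSL-1 and 7.38 and 7.36 with M-CSF, with overlapping groups. In the glutamate pair, Eprs changed by -1.04 and Ears2 by 0.07.

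Ears2 read 5.94 and 6.18 with FSL-1 + nutlin-3a, against 5.97 and 6.01 with FSL-1 and 5.65 and 5.78 with M-CSF. In the leucine pair Lars changed by -0.97 and Lars2 by -0.02, and Lars2 read 7.35 and 7.30 with FSL-1 + nutlin-3a, against 7.37 and 7.31 with FSL-1 and 7.68 and 7.61 with M-CSF. In the proline pair Eprs was set against Pars2, which read 5.48 and 5.54 with FSL-1 + nutlin-3a, against 5.71 and 5.58 with FSL-1 and 5.65 and 5.70 with M-CSF. Lars2 and Ears2 overlapped between FSL-1 + nutlin-3a and FSL-1, whereas Pars2 was slightly lower in both nutlin-3a arrays. The narrowest gap, 0.19, was between Tarsl2 and Tars2. Arrays, not genes, are the replicates, and with 2 arrays in each group an exact permutation test of a single value cannot go below p = 0.333, so the difference between the compartments was not tested.

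**Figure D4:**
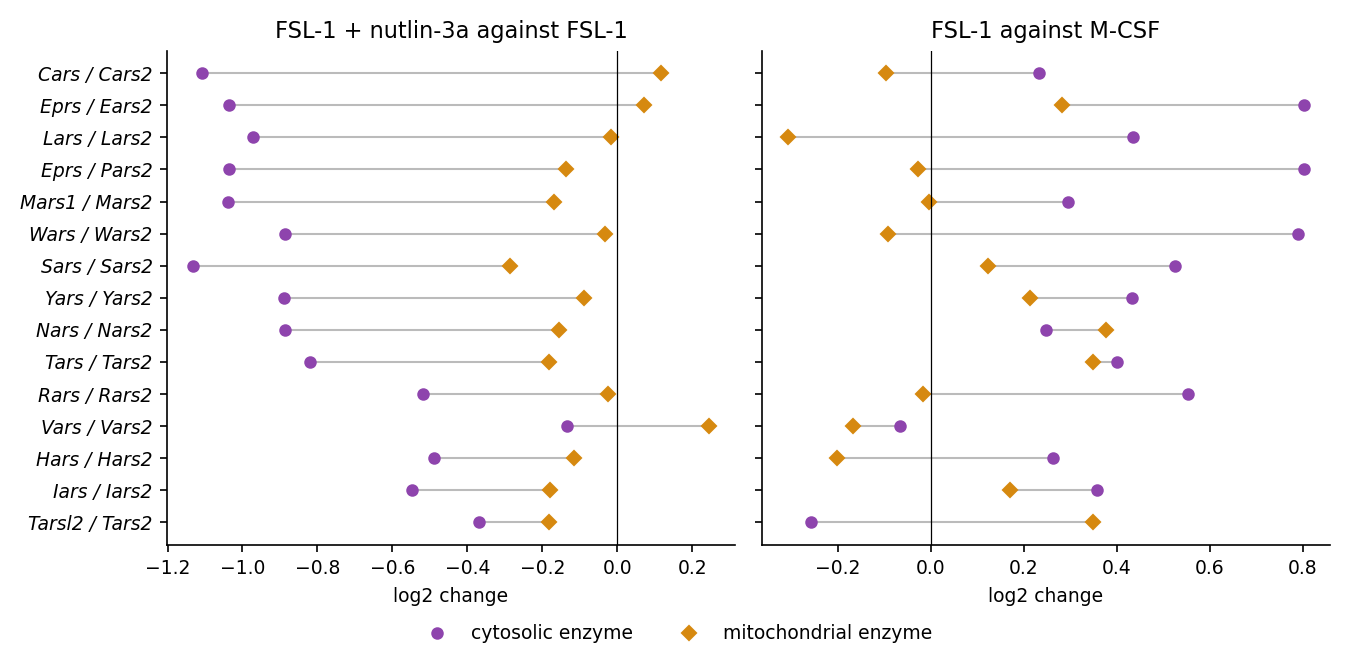
Log2 change of the cytosolic enzyme (purple circle) and the mitochondrial enzyme (orange diamond) for 15 pairs, joined by a line, for FSL-1 + nutlin-3a against FSL-1 on the left and FSL-1 against M-CSF on the right. On the left the circle lies below the diamond in value in all 15 pairs, and on the right it lies above it in 13.

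Because synthetase genes are known targets of Atf4, promoters were searched for TGATGNAA, the core of the C/EBP-ATF response element, on both strands from 250 bases before to 50 bases after each start (RefSeq, GRCm38.p6). Windows were found for 25 of the 34 members. The motif was present in 4 of 12 cytosolic members and 0 of 13 mitochondrial ones, against 4.51 percent of the 27025 genes with a window. All 4, Tars, Gars, Yars and Iars, were among the 7 searched genes that fell with nutlin-3a, and 0 of the 5 searched cytosolic genes that did not pass held it. The other searched genes that fell, Sars, Mars1 and Eprs, had no match. Their calls held with every array left out, whereas Tars, Gars, Yars and Iars each lost theirs in some such fit. Whether the motif goes with the fall was not tested. Of 23 amino acid response genes with a window, 7 held it. The windows below run from 100 bases before the start through its first 15 bases, along the strand of the gene, with the motif in capitals; on the opposite strand it reads TTNCATCA. They show where the match lies in each of the 4 genes.
Tars, chr15:11399644-11399758, minus strand: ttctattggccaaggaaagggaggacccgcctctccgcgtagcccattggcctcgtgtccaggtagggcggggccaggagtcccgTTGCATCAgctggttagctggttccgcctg
Gars, chr6:55037901-55038015, plus strand: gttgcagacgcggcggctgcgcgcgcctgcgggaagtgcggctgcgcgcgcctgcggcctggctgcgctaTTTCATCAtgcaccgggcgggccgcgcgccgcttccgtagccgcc
Yars, chr4:129189803-129189917, plus strand: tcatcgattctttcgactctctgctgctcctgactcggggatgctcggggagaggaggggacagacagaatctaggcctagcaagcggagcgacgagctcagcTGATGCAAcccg
Iars, chr13:49682030-49682144, plus strand: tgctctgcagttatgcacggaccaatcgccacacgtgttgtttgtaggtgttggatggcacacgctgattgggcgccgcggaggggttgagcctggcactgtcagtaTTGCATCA
In Tars and Gars the match lies before the start, and in Yars and Iars just after it. For contrast, 2 windows without these letters follow, from Sars, which showed the largest fall, and from Tars2, the mitochondrial threonine enzyme that did not pass.
Sars, chr3:108445245-108445359, minus strand: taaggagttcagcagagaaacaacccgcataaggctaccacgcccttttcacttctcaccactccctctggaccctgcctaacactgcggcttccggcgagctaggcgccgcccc
Tars2, chr3:95754963-95755077, minus strand: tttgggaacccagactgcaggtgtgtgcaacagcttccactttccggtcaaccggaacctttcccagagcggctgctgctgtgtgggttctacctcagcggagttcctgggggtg
A match is only a run of letters, and binding was not measured.

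The second comparison, FSL-1 against M-CSF, set the giant cell cultures beside ordinary macrophages. It shares the FSL-1 arrays with the first, so the changes of a gene in the 2 comparisons are not independent. Of the 19 cytosolic enzymes 2 (10.5 percent) rose, Eprs and Wars, and 0 fell, against 3.91 percent of all genes that rose and 2.95 percent that fell. Among genes with mean signals in the range of the cytosolic enzymes 7.57 percent rose and 5.75 percent fell. Eprs, at 9.79 and 9.72 with FSL-1 and 8.87 and 9.05 with M-CSF, changed by 0.80 ± 0.13 (SE; adjusted p 0.00952). Wars, at 9.73 and 9.82 with FSL-1 and 8.86 and 9.11 with M-CSF, changed by 0.79 ± 0.13 (SE; adjusted p 0.0132). Both calls were lost without either FSL-1 array or the first M-CSF array, and without the second M-CSF array 4 cytosolic enzymes passed.

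Most other cytosolic enzymes lay above M-CSF without passing the test. The median change of the 19 was 0.36, against -0.01 for all genes, and 16 had FSL-1 arrays entirely above the M-CSF arrays, a pattern of 24.6 percent of all genes. Just short of the threshold were Rars (0.55, adjusted p 0.0573), Sars (0.52, adjusted p 0.0576), Lars (0.44, adjusted p 0.0662) and Farsb (0.42, adjusted p 0.0711). Gars changed by 0.53, Yars by 0.43, Tars by 0.40, Iars by 0.36 and Mars1 by 0.29. Hars changed by 0.26, Nars by 0.25, Cars by 0.23, Farsa by 0.09, Kars by 0.07 and Qars by 0.05. Vars and Tarsl2 had changes below 0, of -0.06 and -0.26.

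None of the mitochondrial enzymes passed here, and their changes ran from -0.31 for Lars2 to 0.38 for Nars2. Other changes above 0 were Tars2 (0.35), Ears2 (0.28), Yars2 (0.21), Iars2 (0.17), Sars2 (0.12) and Aars2 (0.12). Those below 0 were Hars2 (-0.20), Vars2 (-0.17), Cars2 (-0.10), Wars2 (-0.09), Pars2 (-0.03) and Rars2 (-0.02). Mars2 was between these sets, and its change of -0.0045 was also the median of the 15. The cytosolic change was the higher one in 13 of the 15 pairs.

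The third comparison, FSL-1 + nutlin-3a against M-CSF, shares arrays with both others. Of the 19 cytosolic enzymes 6 (31.6 percent) fell and 0 rose, against 4.94 percent of all genes that fell and 4.58 percent that rose. Among genes with mean signals in the range of the cytosolic enzymes 9.96 percent fell and 8.51 percent rose. Cars changed by -0.88 (adjusted p 0.00593), Mars1 by -0.74 (adjusted p 0.00857), Nars by -0.64 (adjusted p 0.0408), Tarsl2 by -0.63 (adjusted p 0.0116), Sars by -0.61 (adjusted p 0.0267) and Lars by -0.54 (adjusted p 0.025). Of these, 5 had also fallen against FSL-1. Tarsl2 was the exception. It read 5.70 and 5.65 with FSL-1 + nutlin-3a, against 6.04 and 6.05 with FSL-1 and 6.25 and 6.35 with M-CSF, so that M-CSF was highest, FSL-1 lay between, and only the outer groups differed by the test.

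Only Cars passed in the comparison with M-CSF under all other settings and with each array left out. Without the second nutlin-3a array or the second M-CSF array, all of the others lost their calls. Nars, Sars and Lars lost theirs without either FSL-1 array, and Sars and Lars without the first nutlin-3a array. Nars and Lars lost theirs without the first M-CSF array, where a cytosolic enzyme that had not been called passed. The changes of the called enzymes stayed below 0 throughout. The median change of the cytosolic enzymes was -0.32, against 0.02 for all genes. Gars (-0.55, adjusted p 0.0585), Yars (-0.46), Tars (-0.42), Kars (-0.32), Eprs (-0.23), Hars (-0.23), Vars (-0.20), Iars (-0.19) and Qars (-0.11) did not pass. Nor did Wars (-0.10), Farsa (-0.08), Rars (0.03) and Farsb (0.35). No mitochondrial enzyme passed, and the range there was -0.32 for Lars2 to 0.35 for Ears2, with a median of -0.01.

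Genes of the amino acid response, the Atf4 program to which many cytosolic synthetases belong, were read from a list of 26 other genes, of which 25 were measured. Of all 22180 genes, 4.12 percent fell with nutlin-3a, 2.38 percent rose, and 285 passed and were over 2 times lower. Of the 25 listed genes 16 fell and 1 rose, with a median change of -1.10, and 13 were over 2 times lower. Without an FSL-1 array the number that fell was 11 or 12. The genes with the smallest p were Nupr1, a stress-induced chromatin protein (-1.81, adjusted p 0.00024), Trib3, a pseudokinase induced by Atf4 (-2.32, adjusted p 0.000344), Psat1, an enzyme of serine synthesis (-2.37, adjusted p 0.000371), and Slc7a5, the large neutral amino acid transporter (-2.79, adjusted p 0.000808). Ddit4, an inhibitor of mTORC1 that p53 also induces, was the gene that rose (1.00, adjusted p 0.0223), and its call was lost without the first FSL-1 array or either nutlin-3a array.

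Atf4 itself read 8.02 and 8.08 with FSL-1 + nutlin-3a, against 9.35 and 9.27 with FSL-1 and 8.42 and 8.77 with M-CSF. It fell with nutlin-3a (change -1.26 ± 0.14, SE; adjusted p 0.0026) and was lower on both nutlin-3a arrays than on any other. Asns, which makes asparagine, read 7.31 and 7.14 with FSL-1 + nutlin-3a, against 9.44 and 9.20 with FSL-1 and 7.96 and 8.68 with M-CSF. Its change of -2.09 ± 0.23 (SE; adjusted p 0.00228) was larger than that of any synthetase. Trib3 read 5.74 and 5.64 with FSL-1 + nutlin-3a, against 7.92 and 8.11 with FSL-1 and 6.11 and 6.53 with M-CSF. Ddit3, the stress factor CHOP, read 6.93 and 7.15 with FSL-1 + nutlin-3a, against 8.22 and 8.56 with FSL-1 and 7.43 and 7.21 with M-CSF. FSL-1 was the high group for both, and Ddit3 fell with nutlin-3a by a log2 change of -1.35 ± 0.16 (SE; adjusted p 0.00325). The sensor kinase gene Eif2ak4 read 7.26 and 7.16 with FSL-1 + nutlin-3a, against 7.04 and 7.20 with FSL-1 and 7.29 and 7.31 with M-CSF, and did not pass (change 0.09, adjusted p 0.737). The RNA of the kinase does not measure its activity.

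Myc, a transcription factor that drives growth genes, read 7.27 and 7.66 with FSL-1 + nutlin-3a, against 9.11 and 9.10 with FSL-1 and 6.66 and 7.50 with M-CSF. It fell with nutlin-3a (change -1.64 ± 0.26, SE; adjusted p 0.0114) and rose in FSL-1 against M-CSF (change 2.02 ± 0.26, SE; adjusted p 0.00397). The fall did not pass without either FSL-1 array or the first nutlin-3a array (adjusted p 0.0773 to 0.0808). In FSL-1 against M-CSF 16 of the 25 amino acid response genes rose and 0 fell, with a median of 0.69, although 6 or 7 rose when an FSL-1 array or the first M-CSF array was left out. Of all genes, 3.91 percent rose and 2.95 percent fell in that comparison. Slc7a11, the cystine transporter subunit, rose most (4.70, adjusted p 1.14e-05), and Trib3 (1.69), Nupr1 (1.07) and Cebpb, a C/EBP transcription factor (1.12), also rose. Atf4 rose by 0.72 (adjusted p 0.0238), a call lost without either FSL-1 array or the first M-CSF array. Against M-CSF, the 25 amino acid response genes did not move as a block in the cells with nutlin-3a. Their changes ran from -2.01 to 5.34, with a median of -0.32, and 5.34 was also the highest change of all genes. Of the 25, 5 rose and 8 fell, beside 4.58 and 4.94 percent of all genes. These counts were 3 and 4 without the second M-CSF or the second nutlin-3a array, and 3 and 5 without the first nutlin-3a array.

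**Figure D5:**
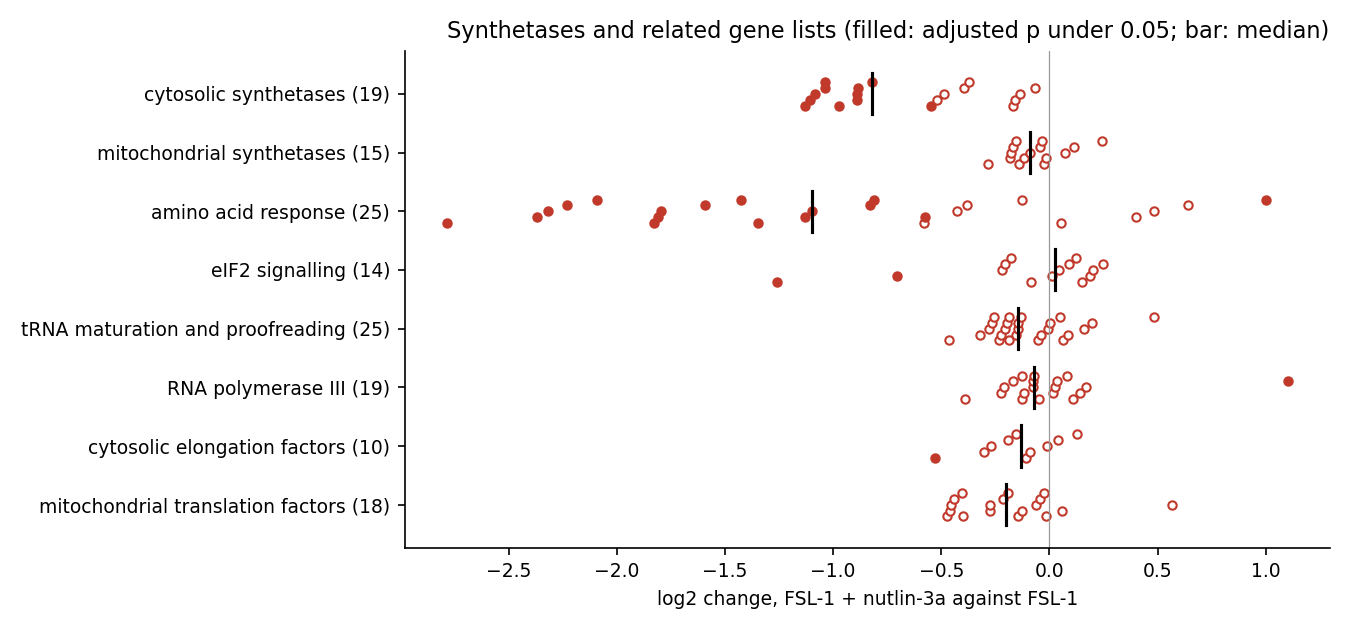
Log2 change in FSL-1 + nutlin-3a against FSL-1 for the members of each gene list, one dot per gene, with a bar at the list's median. The medians are -1.10 for the amino acid response, -0.82 for the cytosolic synthetases and -0.09 for the mitochondrial synthetases.

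Other steps around the synthetases showed fewer calls with nutlin-3a. Over all genes 4.12 percent fell and 2.38 percent rose. Of 14 genes of eIF2 signalling 2 fell, Atf4 and Ppp1r15a, the phosphatase subunit that reverses eIF2 phosphorylation (-0.71, adjusted p 0.0129), and the median was 0.03. The call of Ppp1r15a was lost without either FSL-1 array or the first nutlin-3a array. Of 25 genes of tRNA maturation and proofreading none passed (median -0.15), and of 18 mitochondrial translation factors none passed (median -0.20). Among 10 cytosolic elongation and release factors Etf1, the release factor that reads stop codons, fell (-0.53, adjusted p 0.0322), which did not hold without any FSL-1 or nutlin-3a array. Among 19 genes of RNA polymerase III and its factors, which make tRNA, Gtf3c1 rose (1.10, adjusted p 0.00293). Xpot, the exportin that carries tRNA out of the nucleus and a member of the amino acid response list, fell (-0.81 ± 0.12, SE; adjusted p 0.00701), a call lost without either FSL-1 array.

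The scaffold of the multisynthetase complex was measured through 2 genes. Eef1e1 read 9.17 and 9.65 with FSL-1 + nutlin-3a, against 9.84 and 9.69 with FSL-1 and 8.42 and 8.89 with M-CSF. It rose in FSL-1 against M-CSF (change 1.11 ± 0.20, SE; adjusted p 0.0182), a call lost without either FSL-1 array or the first M-CSF array, and did not pass with nutlin-3a (-0.36, adjusted p 0.378). Aimp1 read 8.035 and 8.001 with FSL-1 + nutlin-3a, against 8.123 and 8.367 with FSL-1 and 8.014 and 8.022 with M-CSF, and changed by -0.23 with nutlin-3a (adjusted p 0.354).

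These neighbouring lists held scattered calls in the comparisons with M-CSF. In FSL-1 against M-CSF 4 of the 25 genes of tRNA maturation rose: Trmt61a (0.75) and Trmt5 (0.53), which methylate tRNA, and Rpp38 (0.62) and Rpp40 (0.64), subunits of the RNase P complex that trims tRNA precursors. None of these 4 calls was stable, since 0 or 1 gene of the list passed with any array left out. Of the 14 eIF2 signalling genes 3 rose, Ppp1r15a (0.82), Eif2b3, a subunit of the exchange factor that recharges eIF2 (0.67), and Atf4, and 0 to 2 rose without an FSL-1 or M-CSF array. Abce1, which recycles ribosomes, rose (0.68), Eef2k, the kinase that inhibits elongation factor 2, fell (-0.67), and the polymerase III subunit gene Polr3g fell (-0.54). These 3 were also lost without either FSL-1 array or the first M-CSF array, and Polr3g also without the second. Between nutlin-3a-treated cells and M-CSF cells the calls included Gtf3c1 (0.92), Polr3gl (-0.67), Eef2k (-0.76), Trmt61a (0.70), and Impact, an inhibitor of GCN2 (0.68). Gtf3c1 and Impact passed with each array left out. Trmt61a was lost without any M-CSF or nutlin-3a array, Polr3gl in every such fit but that without the second M-CSF array, and Eef2k without the first M-CSF or the second nutlin-3a array. Gatc, a subunit of the enzyme that completes glutamine tRNA in mitochondria, where the family has no glutamine member, also rose (0.74, adjusted p 0.0139) and did not pass without the second M-CSF or the second nutlin-3a array.

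Markers of cell types moved in part with the groups. Over 11 macrophage markers the mean signal per array was 11.02 to 11.04 with FSL-1 + nutlin-3a, 11.23 to 11.30 with FSL-1 and 11.16 to 11.26 with M-CSF. With nutlin-3a 3 of the 11 fell against FSL-1, Fcgr1 (-1.58), Cd14 (-1.12) and Mrc1 (-0.85), and 0 rose; the call of Mrc1 was lost without either FSL-1 array. In FSL-1 against M-CSF Itgam (0.74) and Adgre1 (0.56) rose and Csf1r, the M-CSF receptor, fell (-0.87), all lost without either FSL-1 array or the first M-CSF array, and Adgre1 also without the second. With nutlin-3a against M-CSF Fcgr1 (-1.06), Cd14 (-0.70) and Mrc1 (-1.21) fell and Spi1 rose (0.64). Of these, Mrc1 alone passed with every single array left out.

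The 9 neutrophil markers averaged 4.82 to 4.87 per array with FSL-1 + nutlin-3a, 4.86 to 4.93 with FSL-1 and 4.51 to 4.54 with M-CSF. None passed with nutlin-3a against FSL-1. S100a8 rose with FSL-1 (2.40) and with FSL-1 + nutlin-3a (2.17) against M-CSF, whichever array was left out. Cxcr2 rose with FSL-1 against M-CSF (0.60), which held only without the second M-CSF array among the fits with an array left out.

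The 7 dendritic cell markers averaged 5.61 to 5.72 with FSL-1 + nutlin-3a, 5.68 to 5.72 with FSL-1 and 5.50 to 5.53 with M-CSF. Itgax rose with nutlin-3a against FSL-1 (0.88, lost without either FSL-1 array or the first nutlin-3a array) and against M-CSF (0.99). Ccr7 rose with FSL-1 against M-CSF (0.65), a call lost without any FSL-1 or M-CSF array. The 8 fibroblast markers averaged 4.97 to 5.03 with FSL-1 + nutlin-3a, 5.17 to 5.22 with FSL-1 and 4.97 to 5.02 with M-CSF. Col1a2 fell with nutlin-3a against FSL-1 (-0.80), lost without the second FSL-1 array or either nutlin-3a array, and 2 fibroblast genes fell without the first FSL-1 array. Pdgfrb rose with nutlin-3a against M-CSF (0.57), a call lost with any array left out.

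The 7 lymphocyte markers averaged 5.07 to 5.11 with FSL-1 + nutlin-3a, 4.85 to 4.98 with FSL-1 and 5.05 to 5.13 with M-CSF. Cd4 rose with nutlin-3a against FSL-1 (0.64), lost without any FSL-1 or nutlin-3a array, and fell in FSL-1 against M-CSF (-1.01), lost without the first FSL-1 array. The part of these markers in the synthetase changes was not tested.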

How the data were processed

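The deposited values are log2 signals per probe set. Per the submitters' processing notes the authors used RMA and Affymetrix Expression Console 1.4. RMA sets the arrays to the same distribution, so a shift of most genes together would not be seen. Per the labels' protocols, RNA of sorted cells was amplified with the NuGEN Ovation PicoSL WTA kit. No raw intensities were used here, so the background is unknown, and signals of different probe sets cannot be compared as amounts of RNA. Array medians were 5.05 to 5.14.

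Of 34390 probe sets, 23521 name 1 gene; the brightest was kept for each of 22180 genes. The 34 members had 35 probe sets. Groups came from the labels. Each gene was fitted on all 6 arrays with limma 3.58.1 (lmFit, eBayes; R 4.3.3), with 3 residual and 4.88 prior degrees of freedom, and passed where the adjusted p (Benjamini-Hochberg) was under 0.05. The fit was also run on simulated data with known changes and independent noise drawn from its own variance estimates. That run checks the code and cannot show how the real arrays vary. Groups do not overlap where every array of a group lies beyond every array of the other.

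Members and lists were chosen with earlier results of these data known. The genes named are every member, up to 4 passing genes with the smallest p of each list and comparison, and Atf4, Myc, Eif2ak4, Asns, Ddit3 and Trib3; Ddit4, Xpot and the markers named in the text were added after their values were seen. Motif matches were described, not tested. Replicate numbers were not used to pair the arrays in the main fit. Deviations of same-numbered arrays correlated at -0.03 (FSL-1 + nutlin-3a and FSL-1), -0.19 (FSL-1 and M-CSF) and 0.02 (FSL-1 + nutlin-3a and M-CSF). Such correlations cannot show whether same-numbered arrays shared an animal or culture.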

Additional observations from a re-analysis of the deposited data

How the results depend on the processing

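Alternatives were eBayes with trend and robust, another quantile normalization, median centring, the mean of probe sets, genes above the median signal only, the compared groups only, the replicate block, a minimum fold of 1.2 and the omission of single arrays; a replicate block in which the M-CSF numbers were crossed, and the omission of single arrays for the gene lists beside the family, were added after seeing the data. No member changed direction where it had passed. For FSL-1 + nutlin-3a against FSL-1, cytosolic enzymes that fell numbered 7 with the fold minimum, 10 with the replicate block, 10 with it crossed and 5 to 10 with an array left out, against 11; they numbered 14 with trend and robust, where Hars, Rars and Kars passed, and 15 among brighter genes, where Tarsl2 passed too. Iars was lost with both blocks, another quantile normalization, the compared groups only and the fold minimum. All genes higher and lower numbered 1090 and 1568 with trend and robust, 1023 and 1556 among brighter genes, 114 and 339 with the fold minimum, 340 higher with the block, and 65 to 452 and 256 to 760 with an array left out. For FSL-1 against M-CSF, cytosolic enzymes that rose numbered 9, 8 and 0 under trend and robust, brighter genes and the fold minimum, 2 with either block and 0 to 4 with an array left out, and Tars2 made 1 mitochondrial call among brighter genes. All genes higher and lower were 1476 and 1268, 1419 and 1263, and 345 and 193 under the same settings, and 294 to 755 and 116 to 544 with an array left out. For FSL-1 + nutlin-3a against M-CSF, 10, 10 and 1 cytosolic enzymes fell under these settings, 3 with the compared groups only, 6 with the replicate block, 7 with it crossed and 1 to 5 with an array left out; Farsb gave 1 higher call with trend and robust and 1 among brighter genes, and Lars2 gave 1 lower mitochondrial call there. All genes higher and lower were 1548 and 1789 with trend and robust, 430 and 476 with the fold minimum, 1798 lower among brighter genes, and 574 to 738 and 569 to 791 with an array left out. Medians with an array left out ran from -0.84 to -0.68 (cytosolic) and -0.11 to -0.05 (mitochondrial) in the first comparison, 0.23 to 0.41 and -0.0045 to 0.10 in the second and -0.36 to -0.28 and -0.14 to 0.03 in the third. A group left with 1 array was assumed to vary like the others. The causes were not tested.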
